A study of Mus musculus with 2 samples.

Results

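The miR-200 family comprises 5 microRNA (miRNA) hairpin genes in the mouse, in a pair of genomic clusters. The members were taken by name: Mir200b, Mir200a and Mir429 on chromosome 4, and Mir200c and Mir141 on chromosome 6. All 5 had a row of their own among the 1973 genes of the count tables, and all 5 passed the minimum mean level used below, 10 CPM (counts of a gene per 1000000 sense reads). Small RNA was sequenced from whole stomach of B6NCrl mouse embryos of both sexes at day 16.5, with no second tissue, age or treatment. The labels give 2 biological replicates, each a pool of embryos. Replicate 2 held stomachs of 41 embryos, and the number in replicate 1 is not given in the sources used here. Both carry the same donor label, and they are assumed here to be 2 separate pools. A spread between them describes pools of embryos rather than single animals. In whole stomach, fewer epithelial cells and less of a miRNA per cell cannot be told apart.

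A miRNA is cut from a hairpin in its primary transcript, and the arm that is loaded into an Argonaute protein finds messenger RNAs mainly through its seed, bases 2 to 8 from the 5′ end. The miR-200 family is known from epithelial cells, where it represses the mRNAs of the transcription factors ZEB1 and ZEB2, which themselves repress E-cadherin and the miR-200 genes. This mutual repression is known as a switch between epithelial and mesenchymal states. In the embryonic stomach, an epithelium that will form glands is surrounded by mesenchyme and smooth muscle.

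The mature sequences of the 3′ arms, the arms usually loaded, show why the family is split into a pair of seed classes. They are RefSeq entries for GRCm38.p6, the assembly that mm10 names, with the seed in capitals. Lines 1 to 3 belong to one class, and the other 2 to the second.
miR-200b-3p: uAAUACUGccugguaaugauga
miR-200c-3p: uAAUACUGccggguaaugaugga
miR-429-3p: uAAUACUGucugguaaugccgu
miR-200a-3p: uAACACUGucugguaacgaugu
miR-141-3p: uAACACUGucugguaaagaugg

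The 3 miRNAs of the first class share the seed AAUACUG, which pairs with CAGUAUU in a messenger RNA. The other class, miR-200a and miR-141, has the seed AACACUG, which pairs with CAGUGUU. The seeds differ by the single substitution U4C, from miR-429-3p to miR-200a-3p, with positions counted from 1 at the 5′ end of the miRNA. Among 1738 mature miRNAs of the RefSeq table, no other carried either seed, so the 5 hairpins are the whole of both seed classes there. Each seed class has a member in each cluster: the closest pairs of mature sequences lie on different chromosomes. miR-200b-3p differed from miR-200c-3p at 2 of the 22 bases compared (U11G and A22G) and is 1 base shorter. miR-200a-3p differed from miR-141-3p at 2 bases (C17A and U22G). Pairs within a cluster differed at 4 bases each. The first 16 bases of miR-200a-3p and miR-141-3p are identical, so a read cut that short could come from either. No other hairpin of the 1005 in the table held the first 18 bases of any of the 5 mature 3′ arms.

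On chromosome 4 the hairpins lie on the minus strand in the order Mir200b, Mir200a, Mir429, within 1846 bases. Mir200b (ENSMUSG00000065549.2) spans chr4:156055681-156055750, Mir200a (ENSMUSG00000065400.1) chr4:156054896-156054985 and Mir429 (ENSMUSG00000065427.1) chr4:156053905-156053987. All 3 lie in an intron of Ttll10, a tubulin-tyrosine ligase-like gene, on its strand. They also lie within the noncoding transcript Gm13648, Mir200b and Mir200a in an intron and Mir429 in an exon. On chromosome 6, also on the minus strand, Mir200c (ENSMUSG00000065462.2) spans chr6:124718322-124718390 and Mir141 (ENSMUSG00000065474.1) chr6:124717914-124717985, within 477 bases. Both are in an intron of the noncoding gene Gm15884, and Mir141 partly overlaps an exon of the unclassified gene Gm29008. Ttll10, Gm13648, Gm15884 and Gm29008 have no row in the count tables.

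The libraries held 7734578 sense-strand reads assigned to genes in replicate 1 and 7983714 in replicate 2, out of 15746238 and 15958656 reads in all. Counts belong to whole hairpins, so the 5′ and 3′ arms are summed. Reads placed at several positions, 25.1% and 25.2% of all reads, form a total of their own. No read lay on the strand opposite to any of the 5 members. Exact Clopper-Pearson 95% intervals are given for single libraries, and cover counting error only, since no molecular identifiers are recorded in the sources used here.

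Together the 5 hairpins took a nearly equal share of both libraries. They held 393565 reads in replicate 1, or 5.088% of sense-assigned reads (95% interval 5.073% to 5.104%), and 407876 in replicate 2, or 5.109% (5.094% to 5.124%). The members were far apart within that sum. Mir429 was the highest, at 21476 CPM in replicate 1 (21374 to 21579) and 25747 CPM in replicate 2 (25637 to 25857). It ranked 10 among all genes in each library. Mir200c stood at 14910 and 13506 CPM, and Mir200b at 10804 and 7980 CPM. The hairpins of the other seed class were lower in both libraries. Mir141 had 16267 and 17846 reads, or 2103 and 2235 CPM, and Mir200a had 12300 and 12934 reads, or 1590 and 1620 CPM.

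The order Mir429, Mir200c, Mir200b, Mir141, Mir200a was the same in both libraries, and no member's values overlapped those of its neighbour in the order. Mean levels were 23611 ± 3020, 14208 ± 993, 9392 ± 1997, 2169 ± 93.4 and 1605 ± 21.1 CPM (SD, n = 2). Each gap between neighbours was wider than the SD of either. With 2 libraries a side, a two-sided exact permutation test cannot go below p = 0.333, so no p is given for these gaps. The mature arms are of nearly equal length, 22 bases and for miR-200c-3p 23, and a level here counts reads per hairpin. How evenly the libraries captured different miRNAs was not tested, so gaps between members are gaps in reads. Per 100 bases of annotated hairpin the order was unchanged, from 28448 ± 3638 CPM for Mir429 down to 1784 ± 23.4 CPM for Mir200a.

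**Figure D1:**
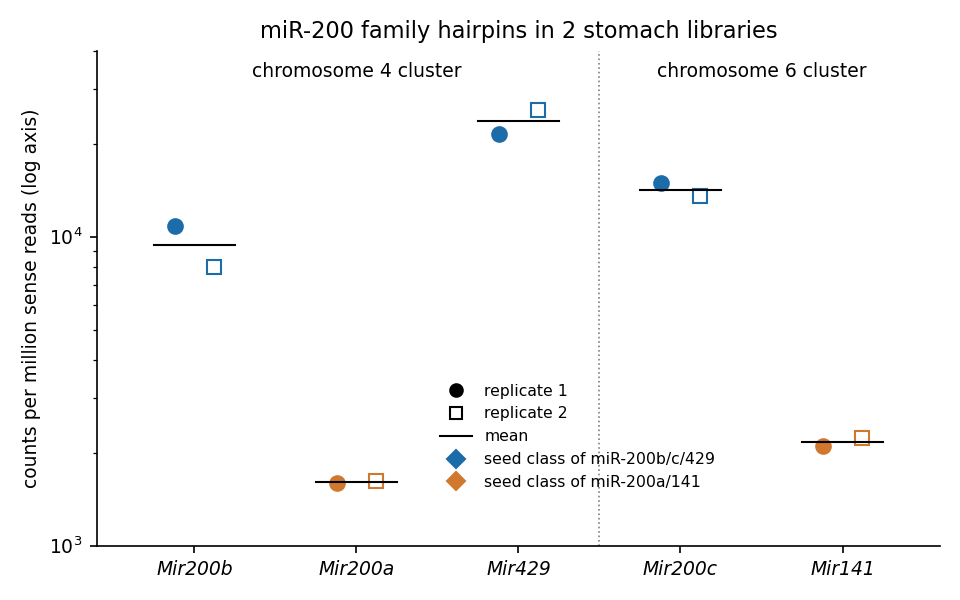
Level in CPM of sense reads (log axis) of the 5 hairpins in replicate 1 (filled circles) and replicate 2 (open squares), with the mean as a line and the colour giving the seed class. The 3 hairpins of the class of miR-200b, miR-200c and miR-429 lie between 7980 and 25747 CPM, above both hairpins of the class of miR-200a and miR-141, at 1590 to 2235 CPM.

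The clusters were compared next. The chromosome 4 cluster held 33870 CPM in replicate 1 and 35347 in replicate 2, against 17014 and 15742 CPM for the chromosome 6 cluster. The ratio of chromosome 4 to chromosome 6 was 1.99 in replicate 1 (95% interval 1.98 to 2.00) and 2.25 in replicate 2 (2.23 to 2.26), a mean log2 ratio of 1.08 ± 0.12 (SD, n = 2). Of the family's reads, 66.6% and 69.2% came from chromosome 4, and 33.4% and 30.8% from chromosome 6. This ratio compares 3 hairpins with 2 and rests on Mir429. As a mean per hairpin the log2 ratio was 0.50 ± 0.12, and without Mir429 it turned to -0.59 ± 0.18, with the chromosome 6 cluster higher.

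In reads, the seed classes were farther apart than the clusters. The class of miR-200b, miR-200c and miR-429 held 47190 CPM in replicate 1 and 47233 in replicate 2, against 3693 and 3855 CPM for the class of miR-200a and miR-141. The ratio was 12.8 in replicate 1 (95% interval 12.6 to 12.9) and 12.3 in replicate 2 (12.1 to 12.4), a mean log2 ratio of 3.65 ± 0.04 (SD, n = 2). The 3 hairpins whose 3′ arms carry the seed AAUACUG thus gave 92.7% and 92.5% of the family's reads, both arms of each hairpin included. The direction was the same inside each cluster. On chromosome 4, Mir200b and Mir429 together stood 20.3-fold and 20.8-fold above Mir200a. On chromosome 6, Mir200c stood 7.09-fold and 6.04-fold above Mir141. Without Mir429 the seed class ratio was 2.64 ± 0.23 on the log2 scale, and per hairpin 3.06 ± 0.04.

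Across the clusters, the closest relatives by mature sequence went the same way: the chromosome 4 hairpin was the lower one in both libraries. Mir200b was below Mir200c, which exceeded it 1.38-fold in replicate 1 and 1.69-fold in replicate 2. Mir200a stood at 0.756 and 0.725 times Mir141. Mir429, the third chromosome 4 hairpin, exceeded Mir200c by a mean of 1.66-fold. Only with Mir429 added did the chromosome 4 sum exceed the chromosome 6 sum, in the miR-200b, miR-200c and miR-429 class by a mean of 2.33-fold.

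**Figure D2:**
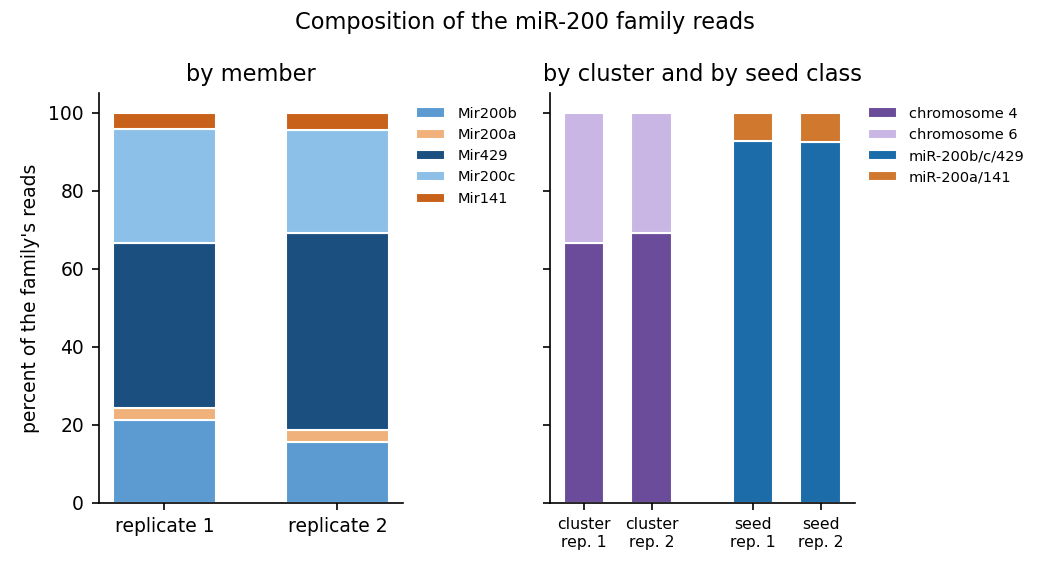
Percent of the family's sense reads in each library, by member at left and by cluster and seed class at right. The chromosome 4 cluster makes up 66.6% and 69.2%, and the hairpins of the class of miR-200b, miR-200c and miR-429 make up 92.7% and 92.5%.

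Neighbours in a cluster lie on the same strand within a short distance, yet differed widely in reads. Mir200a sits between Mir200b, 695 bases before it, and Mir429, 908 bases after it, and was the lowest of the 3. Mir429 exceeded Mir200a 13.5-fold in replicate 1 (95% interval 13.3 to 13.8) and 15.9-fold in replicate 2 (15.6 to 16.2). Mir200b exceeded Mir200a 6.79-fold and 4.93-fold. The hairpins of this most unequal pair are shown with the mature 3′ arm in capitals.
Mir429: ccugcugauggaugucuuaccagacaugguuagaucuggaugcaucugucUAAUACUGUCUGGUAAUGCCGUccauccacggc
Mir200a: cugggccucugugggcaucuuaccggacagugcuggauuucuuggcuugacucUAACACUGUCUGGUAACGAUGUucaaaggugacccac

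The folding energy of the hairpins, predicted with RNAfold, was -34.7, -30.8 and -31.6 kcal/mol for Mir429, Mir200b and Mir200c, against -42.9 and -35.2 kcal/mol for Mir200a and Mir141. Per 100 bases the predicted energy had a size of 41.8, 44.0 and 45.8 in the first class, against 47.7 and 48.9 in the second. The class with fewer reads had the more stable predicted hairpins, with no overlap between the classes, over 5 hairpins. No hairpins outside the family were folded, so there is no background for this separation. The GC content was 49.4%, 51.4% and 55.1% in Mir429, Mir200b and Mir200c, and both hairpins of the other class lay inside this range. Whether folding bears on the reads was not tested.

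**Figure D3:**
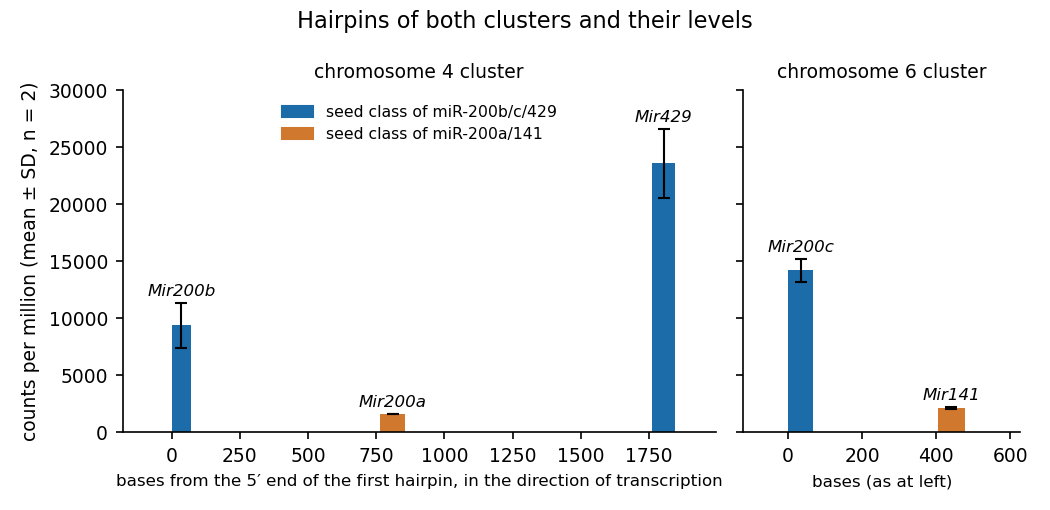
Mean CPM (± SD, n = 2) of each hairpin at its distance from the 5′ end of the first hairpin of its cluster, drawn to scale within each panel and in the direction of transcription. Mir200a and Mir141 stand at 1605 and 2169 CPM beside neighbours at 9392 to 23611 CPM.

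Unequal reads from clustered hairpins were not limited to this family. Annotated miRNA hairpins on the same strand with gaps of at most 10 kb were grouped, keeping those at a mean of 10 CPM or more, which gave 41 clusters of at least 2 hairpins. The chromosome 4 cluster spanned 3.87 ± 0.17 on the log2 scale (SD, n = 2) from its highest to its lowest hairpin, or 14.7-fold, and 1 of the 4 other clusters of 3 hairpins had a wider span. That cluster was Mir23a, Mir27a and Mir24-2, at 55.4-fold. The chromosome 6 cluster spanned 2.71 ± 0.16, or 6.55-fold, and 17 of the 28 other clusters of 2 hairpins had a wider span, with a median of 3.25. Some hairpins in other clusters have near-identical copies elsewhere, so reads placed at several positions may be missing from them. Among these are Mir24-2, the lowest hairpin of the wider cluster of 3, and the lowest of several wider pairs, such as Mirlet7c-1 and Mir30c-1. How far missing reads widen those spans was not tested, so the ranks of the miR-200 clusters depend on it.

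**Figure D4:**
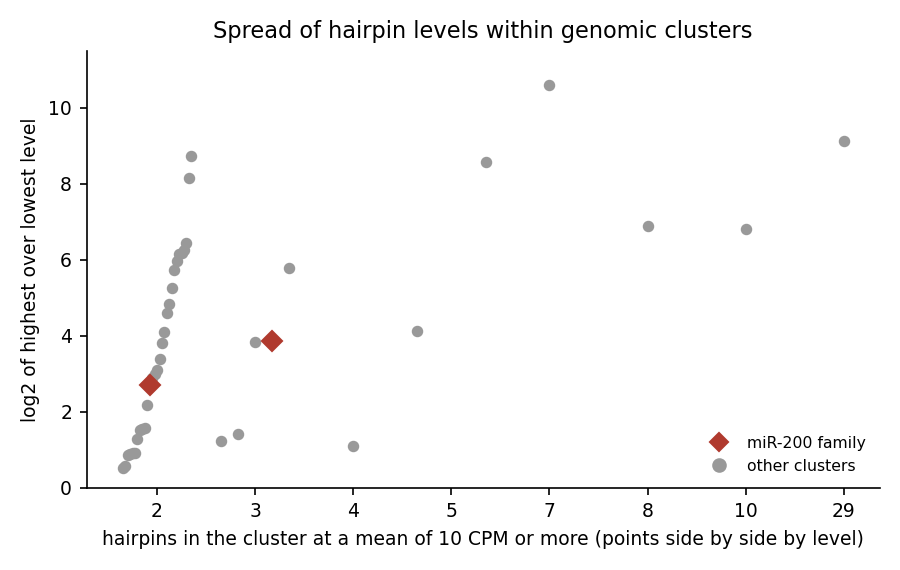
Log2 of the highest over the lowest level within each genomic cluster, taken in each library and averaged, by the number of hairpins at 10 CPM or more. Within a column, points are spread sideways by this value. The clusters of the miR-200 family (diamonds) lie at 3.87 with 3 hairpins and 2.71 with 2 hairpins, within the range of the other clusters (circles).

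The libraries were then compared with each other, as replicate 1 over replicate 2, after scaling by trimmed mean of M values (TMM). Mir429 was lower in replicate 1, with 166109 reads against 205555, a log2 ratio of -0.44 (95% interval -0.45 to -0.43). Mir200b went the other way, with 83563 reads against 63709 and a log2 ratio of 0.25 (0.24 to 0.27). These hairpins share a cluster and a seed and differed in opposite directions. The ratio of Mir429 to Mir200b was 1.99 in replicate 1 and 3.23 in replicate 2. Within the family Mir200b made up 21.2% of reads in replicate 1 and 15.6% in replicate 2, and Mir429 42.2% and 50.4%. Mir141 and Mir200a had log2 ratios of -0.27 and -0.21. Mir200c was at -0.04 with TMM and at 0.14, the other sign, with scaling by total sense reads.

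None of the 5 members reached a difference of 2-fold between the libraries. The call rule was an adjusted p under 0.05 in a two-sided exact binomial test with Benjamini-Hochberg adjustment over all 289 tested genes, together with at least 2-fold. It called 0 of the 5 members, against 7.96% of all tested genes (23 of 289). With no minimum fold, all 5 passed, against 76.1% of tested genes (220 of 289), the largest adjusted p being 2.27e-10 for Mir200c in the same exact test. At this depth small differences exceed counting error, and the test carries no spread among animals. The median size of the log2 ratio was 0.25 over the members and 0.24 over all tested genes. All 5 lay within 1.5-fold, as did 79.9% of tested genes. With scaling by total sense reads, the median over the 289 genes was a log2 ratio of 0.21, against 0.02 with TMM, and 0 members were called, against 29 of all 289 tested genes. Size factors of DESeq2 also called 0 members, against 7.27%.

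Across the chromosome 4 cluster the log2 ratios between the libraries spanned 0.70, the distance from Mir200b to Mir429, which no scaling of libraries changes. In the 4 other clusters of 3 hairpins the median of this span was 0.25, and none was wider. Among all 39 other clusters of any size, the median was 0.36 and 9 were wider. Across chromosome 6 the span was 0.23, against a median of 0.30 in the 28 other clusters of 2 hairpins, 16 of which were wider.

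**Figure D5:**
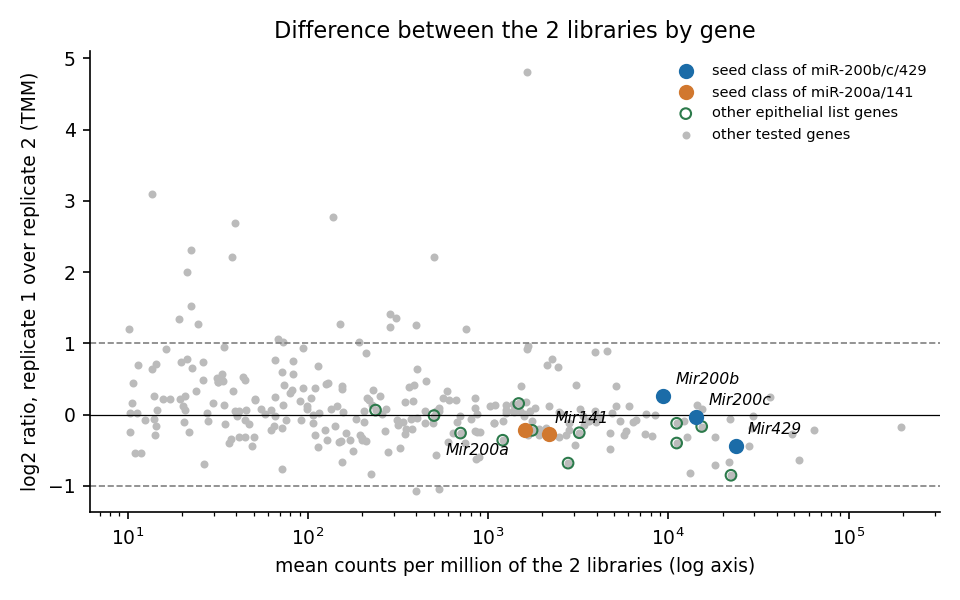
Log2 ratio of replicate 1 over replicate 2 after TMM scaling against the mean level (log axis) for the 289 tested genes; dashed lines mark 2-fold. The 5 members (filled, coloured by seed class) lie between -0.44 for Mir429 and 0.25 for Mir200b, inside the dashed lines.

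The levels of the family were set beside a list of 12 other miRNA genes known from epithelia. Among them are Mir203 and Mir205 of stratified epithelium (miR-205 is also known to target ZEB mRNAs), the Mir183, Mir96 and Mir182 cluster, the endocrine gene Mir375, and Mir192, Mir194-1, Mir194-2 and Mir215 of gut epithelium. The 2 others are Mir31 and Mir21a. All 12 were measured and tested, and together they held 6.57% of sense reads in replicate 1 and 7.78% in replicate 2, against the 5.09% and 5.11% of the 5 miR-200 genes. Their means ran from 237 CPM for Mir194-1 to 22271 CPM for Mir203, just below Mir429. Mir194-1 and Mir194-2 are copies of one miRNA, so their reads may be split or lost. None of the 12 was called between the libraries, against 7.96% of tested genes. Their median log2 ratio was -0.24, beside -0.21 for the miR-200 members and 0.02 over all tested genes. With TMM 10 of the 12 were below 0, against 47.1% of tested genes, and with scaling by total sense reads 7 of the 12, against 28.7%, since Mir21a, Mir205 and Mir194-2 took the other sign. The largest was Mir203, at 17200 CPM in replicate 1 and 27343 CPM in replicate 2, a log2 ratio of -0.85.

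Summed over genes, the family varied between the libraries by a coefficient of variation of 0.284% of its share, against 20.5% for Mir203 with Mir205 and 12.4% for the Mir183, Mir96 and Mir182 cluster. The near-equal sum holds for shares of sense reads. After TMM scaling the family's log2 ratio was -0.19, that of Mir203 with Mir205 -0.60 and that of the Mir183 cluster -0.44. These gaps come from 2 libraries and were not tested.

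Markers of other cells were present in both pools. The list for mesenchyme and smooth muscle (6 of 6 measured, led by Mir143) held 21.1% in replicate 1 and 20.5% in replicate 2, and the endothelial gene Mir126a 2.90% in both. With TMM none of these 7 genes was called between the libraries, against 7.96% of tested genes. The steady sum of the mesenchymal list was carried by Mir143, and 2 members differed more. Mir145a stood at 5317 CPM in replicate 1 and 2540 CPM in replicate 2, a log2 ratio of 0.88, and Mir199b at 2300 and 1040 CPM, a log2 ratio of 0.96. With scaling by total sense reads both were called higher in replicate 1, with log2 ratios of 1.07 and 1.14, against 29 of all 289 tested genes. Mir199a-1, Mir199a-2 and Mir199b are closely related copies, so their reads may be split or lost. The striated muscle list (5 of 6 measured) held 0.321% and 0.0103%, almost all of it Mir206. The count of Mir206 was 24624 in replicate 1, against 797 in replicate 2. It and Mir133b, the 2 genes of the list that were tested, were both called higher in replicate 1, against 21 of all 289 tested genes. Mir1a-1 was too low to be tested, with 4 counts in replicate 1 and 3 in replicate 2. Mir1a-1 and Mir1a-2, the list gene that was not measured, are copies of one miRNA, so reads may be lost here too. Mir133a-1 and Mir133a-2, near-identical copies that share reads, were at 0 in both, where 3 counts would be 0.388 and 0.376 CPM. The leukocyte list (2 of 3 measured) held 0.128% and 0.119%, the erythroid list 0.122% and 0.0577%, and the hepatocyte gene Mir122 0.182% and 0.121%. Of these, the erythroid gene Mir451a was called higher in replicate 1, against 21 of all 289 tested genes. It stood at 1086 CPM in replicate 1 and 418 CPM in replicate 2. Mir144, the other gene of the erythroid list, went the opposite way, at 139 and 159 CPM, and was not called. The part of these cells in the differences between the pools was not tested.

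The genes most like the highest member of each cluster in level were chosen by the smallest sum, over both libraries, of the absolute difference in log2(CPM + 1). For Mir429 these were Mir23b at 0.29, Mir130a at 0.38 and Mir203 at 0.41. Mir23b and Mir203 were, like Mir429, higher in replicate 2 than in replicate 1 (Mir23b 17968 CPM in replicate 1 and 25208 in replicate 2), while Mir130a had 22879 and 21062 CPM. For Mir200c the closest were Mir30e at 0.17, and Mir17 and Mir21a, both at 0.22. With 2 libraries this likeness is one of level.

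The annotated start of Gm13648, the transcript that runs through all 3 chromosome 4 hairpins, lies 4052 bases before Mir200b. Its promoter is shown because ZEB factors are known to repress the miR-200 genes through E-boxes of the sequence CACCTG. The window is chr4:156059753-156060052 on the minus strand (RefSeq, GRCm38.p6), most of it before the start, with CACCTG or its reverse complement CAGGTG in capitals.
Gm13648 promoter: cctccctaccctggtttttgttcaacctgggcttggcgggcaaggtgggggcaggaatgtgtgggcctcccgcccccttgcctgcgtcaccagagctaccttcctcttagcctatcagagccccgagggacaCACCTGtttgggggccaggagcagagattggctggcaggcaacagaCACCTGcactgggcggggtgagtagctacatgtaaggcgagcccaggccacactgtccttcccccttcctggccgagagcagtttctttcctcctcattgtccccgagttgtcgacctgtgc

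The window held 2 copies of the motif, starting at bases 133 and 179, both as CACCTG. Of 32851 promoter windows of the same length in the table, 20.2% held the motif on either strand at least once and 2.88% at least 2 times. A match describes the letters of this window and does not show binding. The start of Gm15884, the transcript across the chromosome 6 hairpins, lies 441 bases before Mir200c, and its promoter was not analysed here.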

How the data were processed

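Small RNA under 30 nucleotides, per the labels, was sequenced from 2 pools of stomach. The deposited tables hold raw read counts per gene for each library, and per the file headers reads were placed on mm10 and counted on GENCODE M4. The sources used here name no aligner, counter or adapter trimming. The sense column was the strand column with the larger total, and 4 summary totals were left out. Gene identifiers were matched to GENCODE M21 (1894 of 1973). Levels are CPM of sense reads. TMM factors came from edgeR 4.0.16 (R 4.3.3) over genes with a mean of at least 10 CPM, with 0.5 added to each count for ratios, and alternative size factors from DESeq2 1.42.0. The exact binomial test used scipy 1.17.1 and was tested on simulated data that held counting error only, without spread between pools. Folding used RNAfold 2.7.2. Python 3.11.15, numpy 2.4.6, pandas 2.3.3 and matplotlib 3.10.9 served for the rest.

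Values of 2 libraries are means ± SD. Members and lists were chosen with earlier results of these data known. Named genes are the members, the 3 genes nearest in level to the highest member of each cluster, and the listed genes. The alternatives were strand, denominators, scaling, hairpin length, filters, cluster gaps and each library left out.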

Additional observations from a re-analysis of the deposited data

How the results depend on the processing

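The family's share of 5.10% became 4.94% with counts that ignore strand, 2.53% of all reads of the library, and 6.34% without the most abundant gene. The log2 cluster ratio of 1.08 became 0.50 as a mean per hairpin and 0.89 per 100 bases of hairpin, and turned to -0.59 without Mir429. The log2 seed class ratio of 3.65 became 3.06 per hairpin, 2.64 without Mir429, 3.70 per 100 bases, 4.36 in the chromosome 4 cluster alone and 2.71 in the chromosome 6 cluster alone. Leaving out each library in turn gave 5.09% to 5.11% for the share, 0.99 to 1.17 for the cluster ratio and 3.61 to 3.68 for the seed class ratio. It gave spans of 3.76 to 3.99 within the chromosome 4 cluster and 2.60 to 2.83 within the chromosome 6 cluster. The count of genes called between the libraries, 23, became 54 with no filter on low counts, where 751 genes were tested, and 220 with no minimum fold; it was 21 with DESeq2 size factors and 29 with total sense reads. With TMM 21 of the 23 were higher in replicate 1, and with total sense reads 29 of 29. Of the 6 mesenchymal genes, 0 were called with TMM or DESeq2 size factors and 2 with total sense reads, a comparison chosen after seeing the data. The log2 ratio of Mir200c turned to 0.14 with total sense reads. Wider gaps between clustered hairpins and a looser filter left the within-cluster spans at 3.87 and 2.71. Both came from the same hairpins as before, so these spans had no room to move. Scaling by hairpin length, chosen after seeing the data, left both spans within 1 SD. With gaps of up to 50 kb 3 of 6 other clusters of 3 hairpins were wider than the chromosome 4 cluster, and with the looser filter 3 of 5. In all, 41 of 55 other values were labelled as unchanged. For the members' log2 ratios between the libraries this asked only for the same sign. Other values had to keep their direction and move by less than the spread or threshold set for them. With 2 libraries, the value of either one always lies within 1 SD of the mean. The values with a library left out therefore met this in advance and do not count as support. Nor do the cluster and seed class ratios with counts that ignore strand, since no member had a read on the opposite strand. The within-cluster spans with wider gaps or the looser filter, taken from the same hairpins, are no support either. No paired analysis was possible because the labels name a single group. Leaving out a library leaves no between-library test. With 2 libraries, depth limits these results less than the number of pools.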
